A study of Mus musculus with 8 samples.

Results

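The genes followed here are 10 targets of hypoxia-inducible factor (HIF) that are not glycolytic enzymes: Vegfa, Adm, Stc1, Egln1, Egln3, Pdk1, P4ha1, Bnip3, Ndrg1 and Ankrd37. They were taken by name from the 55418 genes of the count tables. The list was selected on results of the same libraries, the fold changes of HIF targets in each depletion against control being known when it was made. The members' values are therefore given as a description, without a p-value. Where a member is said to meet a threshold on p, this also only describes the list. RNA-seq was performed on feeder-free mouse E14 embryonic stem cells (ESCs, strain label 12910la) grown on gelatin in serum/LIF medium. Hira, Ubn1 and Ubn2 are members of the HIRA complex, which loads H3.3, a replacement form of histone H3, into nucleosomes throughout the cell cycle. There were 4 groups of 2 libraries each: a control and Hira_KD, Ubn1_KD and Ubn2_KD cells, which received an shRNA against the named gene. Cells of every group were described as wild-type ESCs transfected with 1000 ng of pSuper-puro plasmid, and 24 h later treated with 1 µg/ml puromycin for 3 days. The control plasmid carried an shRNA against luciferase. The depleted cells are therefore transiently transfected, drug-selected populations and not clones, and they kept part of the target: Hira mRNA was at 10.9% of control in Hira_KD, Ubn1 mRNA at 49.0% in Ubn1_KD and Ubn2 mRNA at 53.7% in Ubn2_KD. Separate cultures were not stated for the 2 libraries of a group, so the p-values given for genes outside the list measure the spread between these libraries, which may be technical.

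HIF is a pair of proteins, an oxygen-regulated alpha subunit (Hif1a, Epas1 or Hif3a) and the constant partner Arnt. In the presence of oxygen, prolyl hydroxylases of the Egln family mark the alpha subunit, Vhl recognizes the mark and the subunit is degraded, so that HIF activity is set largely by protein stability and not by the mRNA of its subunits. When oxygen is low, HIF binds short response elements and turns on genes for blood vessel growth, for glucose use without oxygen and for mitochondrial turnover, together with Egln genes that feed back on HIF itself. The list covers these roles: secreted signals (Vegfa, Adm, Stc1), the oxygen sensors Egln1 and Egln3, metabolic and collagen enzymes (Pdk1, P4ha1), and genes of mitochondrial removal and the stress response (Bnip3, Ndrg1, Ankrd37).

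The response element has the core ACGTG or GCGTG, and the promoters of 5 members are shown because these genes differ in how they responded and each carries a core within the 250 bases before its start. The sequences are from RefSeq on GRCm38.p6 and run 5′ to 3′ on the gene's strand, with each core in capitals on either strand (CACGT and CACGC are the same cores read on the other strand). Each stretch is the part of the window from 250 bases before to 50 bases after the gene's start that spans the matches.
Bnip3 (chr7:138909527-138909633, minus strand): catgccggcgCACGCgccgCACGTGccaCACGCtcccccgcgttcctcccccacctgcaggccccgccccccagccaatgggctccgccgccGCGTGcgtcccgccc
Ankrd37 (chr8:45999842-46000100, minus strand): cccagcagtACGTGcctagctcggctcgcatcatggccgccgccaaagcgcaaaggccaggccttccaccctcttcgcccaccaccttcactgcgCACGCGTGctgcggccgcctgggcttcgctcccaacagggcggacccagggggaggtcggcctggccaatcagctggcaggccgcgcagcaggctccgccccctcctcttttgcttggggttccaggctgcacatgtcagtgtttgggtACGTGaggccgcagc
Egln1 (chr8:124949308-124949390, minus strand): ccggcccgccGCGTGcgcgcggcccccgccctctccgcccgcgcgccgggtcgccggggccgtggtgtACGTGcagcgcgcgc
Egln3 (chr12:54204089-54204113, minus strand): tgcatctcagACGTGagatccaggt
Pdk1 (chr2:71873136-71873236, plus strand): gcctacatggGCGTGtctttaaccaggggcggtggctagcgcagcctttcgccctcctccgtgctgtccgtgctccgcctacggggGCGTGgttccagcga
The Bnip3 window held 5 matches, among them CACGTG, which contains ACGTG on both strands and counts as 2. The Ankrd37 window held 4 matches, of which the CACGCGTG in its middle gives 2, and the Egln1 window held 2. The Egln3 window had 1 match and the shown Pdk1 window 2. Of the 10 members, 8 had a promoter in the table, with 10 windows in all. At least 1 core lay in 8 of these windows, and each of the 8 genes had a window with a match. Among all 32851 windows of 300 bases, 43.8% held ACGTG or GCGTG, 19.6% held ACGTG and 32.4% held GCGTG. The members' windows were 40.3 to 86.0% G and C, against a median of 52.7% over all windows, and a match of 5 letters is a description and not a measured site.

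Expression is given as CPM, the gene's counts scaled to a common library size after TMM, a method that aligns libraries on the bulk of their genes. Total counts on genes were 19710040 to 32706053 per library. Fold changes are those of edgeR's quasi-likelihood fit with their standard error (SE). A gene was called when its Benjamini-Hochberg adjusted p was below 0.05 and its fold change exceeded 1.5. All 10 members passed the filter on low counts in every comparison. All 9 pluripotency markers were detected in every library, with a summed level of 5666 to 6998 CPM. The 8 cardiomyocyte markers summed to 285.4 and 183.2 CPM in Ubn2_KD and to 19.13 to 24.16 CPM in the other 6 libraries. Csrp3 was at 0 in 4 of those 6. Actc1, Myh6, Myh7 and Tnnt2 made up most of the Ubn2_KD sums. Myl7 fell there, to 3.632 and 3.517 CPM from 6.378 and 7.387 CPM in the control. The neuronal markers summed to 287.7 and 297.9 CPM in Hira_KD and to 107.1 to 203.7 CPM elsewhere, with Dcx at 0 throughout. Tubb3, Nefl and Nefm made up most of the Hira_KD sums. Elavl3 was not higher, at 27.18 and 27.46 CPM in Hira_KD against 31.16 and 29.61 CPM in the control. The trophoblast markers summed to 139.8 and 114.0 CPM in Hira_KD against 60.87 to 72.93 CPM elsewhere. Most of that rise lay in Krt8 and Krt18, while Tfap2c overlapped the control. The summed fibroblast (18.97 to 36.08 CPM), endothelial (122.5 to 140.3 CPM) and endoderm (6.52 to 12.46 CPM) lists did not set Ubn2_KD apart, but the first 2 sums were carried by a few genes such as Thy1 and Pecam1 and held members that rose there. Of 7 endothelial markers tested, 4 rose in Ubn2_KD. Cdh5 was at 75 and 29 counts against 3 and 3 in the control. Kdr was at 9.378 and 6.678 CPM against 1.363 and 1.352 CPM, and Esam at 5.333 and 4.384 CPM against 1.217 and 1.509 CPM. Tek was at 21.70 and 21.97 CPM against 14.22 and 12.83 CPM. In Hira_KD Tek was higher still, at 42.26 and 42.93 CPM, and Kdr was also called higher, at 3.784 and 4.743 CPM. Esam was not higher in Hira_KD, at 0.484 and 0.901 CPM. Emcn, which was not tested, was at 0 outside Ubn2_KD. Of 6 fibroblast markers tested, 3 rose and 1 fell in Ubn2_KD: Col3a1 had 147 and 81 counts against 0 in the control, Col1a2 was at 3.172 and 1.784 CPM against 0.292 and 0.377 CPM, and Dcn, Lum and Postn were at 0 outside Ubn2_KD. The part of such cells in the values that follow was not tested. In these bulk libraries, fewer cells of a type and less RNA per cell cannot be told apart.

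The HIF targets had lower mean levels in all 3 depletions, and the lowest in Ubn2-depleted ESCs for all but Pdk1. In Ubn2_KD, 9 of 10 members were called lower and none higher, with a median log2 fold change of -1.78. In Hira_KD, 7 of 10 were called lower, with a median of -0.65, and in Ubn1_KD 4 of 10, with a median of -0.71. The share of all tested genes called lower was 8.75% in Ubn2_KD, 5.4% in Hira_KD and 1.56% in Ubn1_KD, the share called higher was 9.59%, 10.8% and 1.53%, and the median over all tested genes was -0.00, 0.01 and -0.00. Because the list was made with these contrasts known, nothing is read from the members' count beside those shares. Bnip3, Egln3 and Ankrd37 were the 3 members called lower in every depletion. The control libraries had the highest mean for all 10 members, and Ubn2_KD the lowest for 9. The order control, Ubn1_KD, Hira_KD, Ubn2_KD from high to low held for 7 members, and Ndrg1 and Adm had Hira_KD above Ubn1_KD instead.

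**Figure D1:**
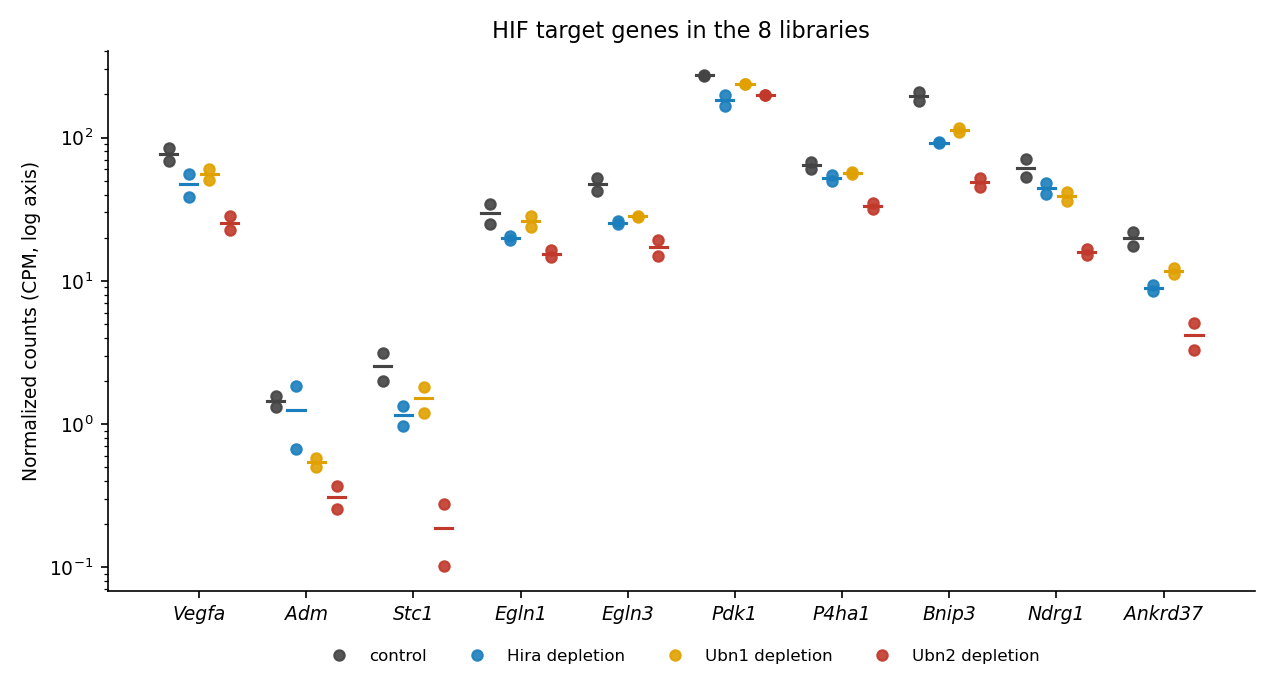
Level of the 10 HIF target genes in the 8 libraries, in CPM on a log axis. Points are single libraries coloured by group and short bars are group means (n = 2); both Ubn2_KD libraries lie below the other 6 for 9 members, the exception being Pdk1.

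Among the secreted signals, Vegfa, the main growth factor for blood vessels, had the highest level per length, at a control mean of 17.8 CPM per kb of exon against 0.889 for Adm and 0.609 for Stc1. Its level was 83.98 and 68.69 CPM in the control, 56.06 and 38.18 CPM in Hira_KD, 50.89 and 60.60 CPM in Ubn1_KD, and 22.66 and 28.14 CPM in Ubn2_KD. Each depletion lay below both control libraries, the Hira_KD and Ubn1_KD libraries overlapped, and Ubn2_KD lay lowest. The log2 fold change was -1.59 (SE 0.11) in Ubn2_KD, or 33.3% of the control mean, -0.70 (SE 0.13) in Hira_KD and -0.45 (SE 0.11) in Ubn1_KD, the last not called. The Hira_KD call for Vegfa was lost without the first control library, at -0.55, and without the second Hira_KD library, at -0.46, and the Ubn1_KD value met the thresholds without the second control library, at -0.60.

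Stc1, which encodes the secreted glycoprotein stanniocalcin, was measured on few reads. It was at 1.996 and 3.112 CPM in the control, 0.969 and 1.328 CPM in Hira_KD, 1.824 and 1.190 CPM in Ubn1_KD, and 0.276 and 0.102 CPM in Ubn2_KD. The Ubn2_KD libraries were the lowest, while those of Hira_KD and Ubn1_KD overlapped. The Ubn2_KD libraries held 8 counts together against 140 in the control, which is 7.43% of control after scaling by total counts without TMM. The exact 95% interval of 3.14 to 15.0% covers counting error only. The fitted log2 fold change was -3.71 (SE 0.50) in Ubn2_KD and -1.21 (SE 0.35) in Hira_KD, both called, and -0.80 (SE 0.33) in Ubn1_KD, not called. The Hira_KD call was lost without the second control library, at -0.84, and without the first Hira_KD library, at -0.99, and the Ubn1_KD value met the thresholds without the first Ubn1_KD library, at -1.14. Stc1 shares 229 exon bases with the antisense gene Gm41192, and the strand setting of the counting was not given, so that reads of such pairs cannot be told apart.

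Adm, which encodes the vessel-dilating peptide adrenomedullin, was also measured on few reads. Its level was 1.558 and 1.320 CPM in the control, 1.846 and 0.664 CPM in Hira_KD, 0.502 and 0.576 CPM in Ubn1_KD, and 0.368 and 0.255 CPM in Ubn2_KD. The Hira_KD libraries lay on either side of the control, whereas those of Ubn1_KD and Ubn2_KD lay below it. Summed counts came to 22.8% of control in Ubn2_KD (11.6 to 41.5%), 38.8% in Ubn1_KD (23.8 to 61.5%) and 106% in Hira_KD (75.8 to 148%), with exact 95% intervals for counting error only. These percentages are scaled by total counts without TMM. By mean CPM, which uses TMM, Adm in Hira_KD was at 87.2% of control, so its direction there depends on the calculation. The fitted log2 fold change of -2.17 (SE 0.49) in Ubn2_KD was called, and those of -1.40 (SE 0.45) in Ubn1_KD and -0.13 (SE 0.41) in Hira_KD were not. In Hira_KD a single library set the value, which was -1.12 without the first Hira_KD library and 0.35 without the second.

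The oxygen sensors differed from each other. Egln3, the prolyl hydroxylase most strongly induced by hypoxia in many tissues, was at 42.16 and 52.34 CPM in the control, 24.73 and 26.18 CPM in Hira_KD, 28.09 and 28.34 CPM in Ubn1_KD, and 14.94 and 19.32 CPM in Ubn2_KD. No library overlapped another group's, and all 3 depletions were called lower. The log2 fold changes were -1.47 (SE 0.13) in Ubn2_KD, -0.92 (SE 0.11) in Hira_KD and -0.75 (SE 0.11) in Ubn1_KD.

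Egln1, the main hydroxylase that keeps HIF low in normal oxygen, was at 24.83 and 34.26 CPM in the control, 19.34 and 20.63 CPM in Hira_KD, 23.62 and 28.49 CPM in Ubn1_KD, and 14.66 and 16.31 CPM in Ubn2_KD. The Ubn1_KD libraries overlapped those of the control, and the Hira_KD and Ubn2_KD libraries lay below both. The log2 fold change was -0.94 (SE 0.14) in Ubn2_KD, -0.59 (SE 0.13) in Hira_KD and -0.19 (SE 0.13) in Ubn1_KD, the last not called. The Hira_KD value lay just past the fold threshold, and the call was lost without the second control library, at -0.33, and without the first Hira_KD library, at -0.55.

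Pdk1, a kinase that inhibits pyruvate dehydrogenase, was the only member without its lowest mean in Ubn2_KD. It was at 272.2 and 271.1 CPM in the control, 166.5 and 197.7 CPM in Hira_KD, 235.2 and 237.7 CPM in Ubn1_KD, and 198.7 and 199.3 CPM in Ubn2_KD. Hira_KD, not Ubn2_KD, was lowest, and no 2 groups overlapped. The difference between Hira_KD and Ubn2_KD was small, at -0.12 (SE 0.08), and was not called. The log2 fold change was -0.59 (SE 0.08) in Hira_KD, which was called, and -0.45 (SE 0.07) in Ubn2_KD and -0.20 (SE 0.09) in Ubn1_KD, which were not. Without the first Hira_KD library the Hira_KD value was -0.48 and no longer called.

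P4ha1, a subunit of the enzyme that hydroxylates prolines in collagen, was at 60.42 and 67.87 CPM in the control, 54.36 and 49.62 CPM in Hira_KD, 55.86 and 57.83 CPM in Ubn1_KD, and 31.49 and 34.71 CPM in Ubn2_KD. The groups did not overlap, but only the Ubn2_KD level stood far below the rest. Its log2 fold change was -0.96 (SE 0.09) in Ubn2_KD, called, against -0.32 (SE 0.09) in Hira_KD and -0.18 (SE 0.10) in Ubn1_KD, not called.

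Bnip3, a receptor on mitochondria that takes part in their removal, had the highest level per length of transcript among the members, at a control mean of 86.1 CPM per kb against 34.9 CPM per kb for Pdk1, the next. Its CPM was 181.4 and 208.4 in the control, 91.05 and 93.59 in Hira_KD, 109.6 and 116.3 in Ubn1_KD, and 45.01 and 52.15 in Ubn2_KD. No libraries of different groups overlapped. The log2 fold change was -2.01 (SE 0.08) in Ubn2_KD, or 24.9% of control, -1.10 (SE 0.08) in Hira_KD and -0.79 (SE 0.09) in Ubn1_KD. Bnip3 shares 504 exon bases with the antisense gene Gm45507, whose own counts were 1359 and 2508 in the control, 1117 and 753 in Hira_KD, 1012 and 832 in Ubn1_KD, and 404 and 416 in Ubn2_KD.

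Ndrg1, a stress-responsive gene, was at 53.02 and 70.41 CPM in the control, 48.04 and 40.51 CPM in Hira_KD, 35.98 and 41.71 CPM in Ubn1_KD, and 15.12 and 16.62 CPM in Ubn2_KD. All depleted libraries lay below the control, Hira_KD and Ubn1_KD overlapped, and Ubn2_KD was far below. The log2 fold change was -1.97 (SE 0.12) in Ubn2_KD and -0.67 (SE 0.12) in Ubn1_KD, both called, and -0.50 (SE 0.11) in Hira_KD, not called. The Ubn1_KD call was lost without the second control library, at -0.46, and without the first Ubn1_KD library, at -0.58, and Hira_KD met the thresholds without the first control library, at -0.69, or the first Hira_KD library, at -0.63. Ndrg1 shares 419 exon bases with the antisense gene Gm17035 and 137 with Gm2895. Raw counts of Gm17035 were 338 and 741 in the control and 112 and 117 in Ubn2_KD. Those of Gm2895 were 134 and 260 in the control and 51 and 25 in Ubn2_KD.

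Ankrd37, a small ankyrin-repeat protein and established HIF target, was at 22.01 and 17.57 CPM in the control, 9.323 and 8.443 CPM in Hira_KD, 11.08 and 12.33 CPM in Ubn1_KD, and 3.264 and 5.046 CPM in Ubn2_KD. The 4 groups did not overlap. The log2 fold change was -2.25 (SE 0.19) in Ubn2_KD, or 21.0% of control, -1.16 (SE 0.15) in Hira_KD and -0.75 (SE 0.15) in Ubn1_KD, all called. The Ubn1_KD call was lost without the first control library, at -0.58. Ankrd37 overlaps Lrp2bp on the other strand by 349 exon bases and Ufsp2 by 57. Raw counts of Lrp2bp were 260 and 360 in the control and 34 and 51 in Ubn2_KD. Those of Ufsp2 were 648 and 931 in the control and 374 and 387 in Ubn2_KD. How far shared reads entered the Ankrd37 values was not tested.

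**Figure D2:**
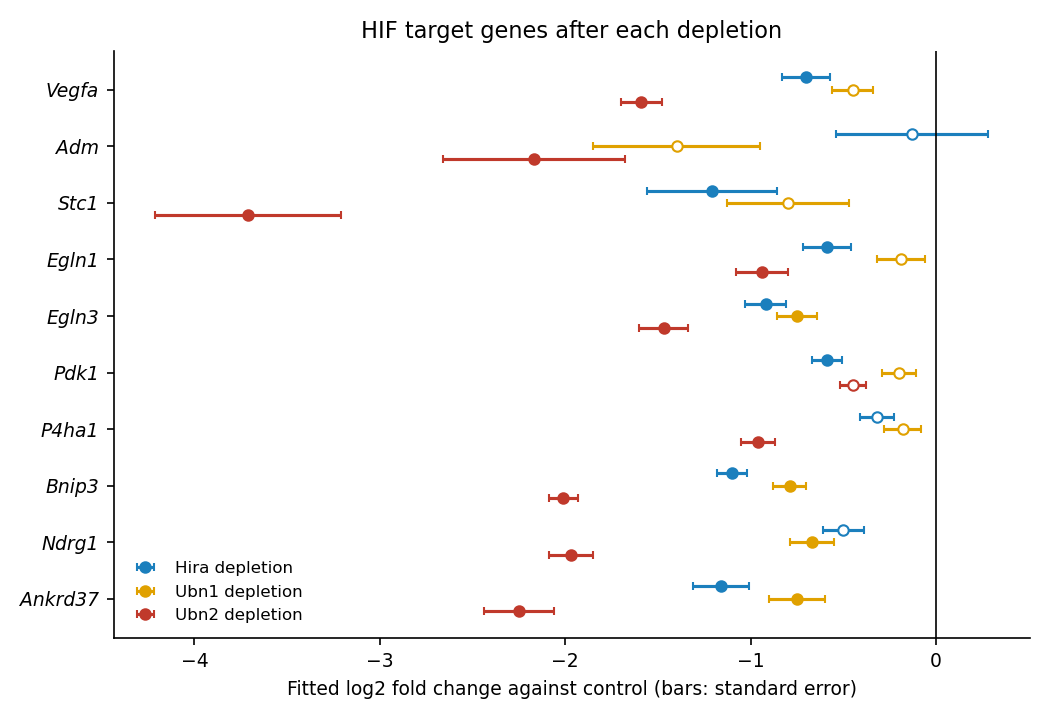
Fitted log2 fold change of each HIF target against control after Hira, Ubn1 and Ubn2 depletion, with bars for the standard error. Filled points met both thresholds and open points did not; the Ubn2_KD point is farthest to the left for every member but Pdk1, from -0.94 for Egln1 to -3.71 for Stc1.

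Counted by libraries alone, both depleted libraries lay below both control libraries for 9 members in Hira_KD, 9 in Ubn1_KD and 10 in Ubn2_KD, against 31.4%, 24.8% and 34.9% of all tested genes. Both Ubn2_KD libraries lay below the other 6 libraries for 9 members and for 14.3% of all genes tested in Ubn2_KD. Neighbouring groups in the order of means were separate at every step for 5 members, namely Bnip3, Egln3, Ankrd37, P4ha1 and Pdk1. In the other 5 an overlap lay between the control and the next group (Egln1, Adm) or between Hira_KD and Ubn1_KD (Vegfa, Ndrg1, Stc1).

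The depletions were next compared with each other, which leaves out the control libraries. The list was made with the fold changes of these same depleted libraries known, so these comparisons are no separate check. Here too, nothing is read from the members' counts beside the shares. Against Ubn2_KD, 7 of 10 members were called higher in Hira_KD, beside 12.0% of all tested genes, with a median log2 difference of 0.92 against 0.01 over all genes. Stc1 had the largest difference, 2.53 (SE 0.59), followed by Adm at 2.05 (SE 0.58), and Ndrg1 was higher by 1.49 (SE 0.12). Egln1 at 0.37 (SE 0.12), Egln3 at 0.58 (SE 0.13) and Pdk1 at -0.12 (SE 0.08) were not called. The Adm call was lost without the first Hira_KD library, at 1.08, and Egln3 met the thresholds without the second Ubn2_KD library, at 0.77, or the first Hira_KD library, at 0.62.

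Against Ubn1_KD, 8 of 10 members were called lower in Ubn2_KD, beside 4.09% of all tested genes, with a median of -0.96 against 0.00. Bnip3 differed by -1.22 (SE 0.10), Ankrd37 by -1.5 (SE 0.21) and Vegfa by -1.14 (SE 0.12). Pdk1 at -0.25 (SE 0.09) and Adm at -0.78 (SE 0.60) were not called. Leaving out the first Ubn2_KD library brought Egln3 from -0.72 to -0.55, below the fold threshold.

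Between Hira_KD and Ubn1_KD no member met both thresholds: edgeR called 0 of 10, beside 12.7% of all tested genes in either direction, and DESeq2 also called 0. At an unadjusted p below 0.05, 4 members were lower and 1 was higher in Hira_KD, which only describes a list chosen on these libraries. The median was -0.25 against 0.02 over all genes, and single members ran from -0.40 (SE 0.40) for Stc1 to 1.27 (SE 0.50) for Adm. These values do not show equal levels: Bnip3 at -0.28 (SE 0.10), Egln1 at -0.38 (SE 0.13) and Pdk1 at -0.37 (SE 0.10) met the threshold on the adjusted p but not that on the fold change. Adm was called higher without the second Hira_KD library, at 1.77.

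Apart from Egln1 and Egln3, the HIF subunits and the proteins that control them were mostly not called. More of these others rose than fell in Ubn2_KD. Egln1 and Egln3 also control HIF but are counted with the members. Both were called lower in Hira_KD and Ubn2_KD, and Egln3 also in Ubn1_KD. In a list of 16 of the others, edgeR called 0 in Hira_KD and 0 in Ubn1_KD, where DESeq2 also called 0. At an unadjusted p below 0.05, 5 were lower and 5 higher in Hira_KD, and 1 lower and 4 higher in Ubn1_KD. In Ubn2_KD, 1 fell and 5 rose, beside 8.75% of all tested genes called lower and 9.59% called higher, and the list's median log2 fold change was -0.11, 0.05 and 0.00 in the 3 depletions. Hif1a, the main oxygen-regulated subunit, was at 98.59 and 87.67 CPM in the control and at 124.0 and 102.8 CPM in Ubn2_KD, a log2 fold change of 0.29 (edgeR adjusted p = 0.00973) that stayed under the fold threshold. Its values in Hira_KD and Ubn1_KD were -0.10 (adjusted p = 0.351) and 0.02 (adjusted p = 0.922). Arnt, the partner subunit, had values of 0.14 in Hira_KD, 0.00 in Ubn1_KD and -0.14 in Ubn2_KD (adjusted p = 0.175, 0.986 and 0.144). Its relative Arnt2, named after its values were seen, was at 10.03 and 7.387 CPM in the control and 18.43 and 14.68 CPM in Ubn2_KD. In Hira_KD Arnt2 was at 12.14 and 12.19 CPM, and in Ubn1_KD at 9.120 and 9.485 CPM.

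Epas1, which encodes the HIF2 alpha subunit, rose in Ubn2_KD, from 45.42 and 57.09 CPM in the control to 96.91 and 79.93 CPM, a log2 fold change of 0.78 (adjusted p = 3.21e-06). In Hira_KD it was -0.37 (adjusted p = 0.0539), with libraries at 30.84 and 50.23 CPM, and without the second Hira_KD library it was called at -0.76. The direct difference between Hira_KD and Ubn2_KD was -1.14 (adjusted p = 7.98e-05). Hif3a, whose products include forms that can restrain HIF activity, fell in Ubn2_KD from 21.71 and 22.04 CPM to 8.32 and 7.14 CPM, by 1.5 on the log2 scale (adjusted p = 4.42e-08), and was at -0.47 in Ubn1_KD (adjusted p = 0.0323), where it met the thresholds without the second Ubn1_KD library, at -0.67. Vhl, which recognizes hydroxylated HIF, was at 0.36 in Hira_KD (adjusted p = 0.0199), under the fold threshold, 0.29 in Ubn1_KD (adjusted p = 0.153) and -0.07 in Ubn2_KD (adjusted p = 0.666).

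Other regulators that rose in Ubn2_KD were Crebbp, a coactivator that HIF recruits, at 0.93 (adjusted p = 1.84e-08), Egln2, the third prolyl hydroxylase, at 0.74 (adjusted p = 2.17e-07), and Cited2, which competes with HIF for that coactivator, at 0.90 (adjusted p = 9.62e-07). Crebbp and Egln2 were both at 0.51 in Hira_KD, with adjusted p = 0.000125 and 0.000109, and at 0.49 and 0.50 in Ubn1_KD, with adjusted p = 0.00203 and 0.00103, in each case under the fold threshold. Egln2 was higher in the libraries of each depletion, while its relatives Egln1 and Egln3 had lower means. Without the first Hira_KD library, Egln2 was called in Hira_KD, at 0.59.

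**Figure D3:**
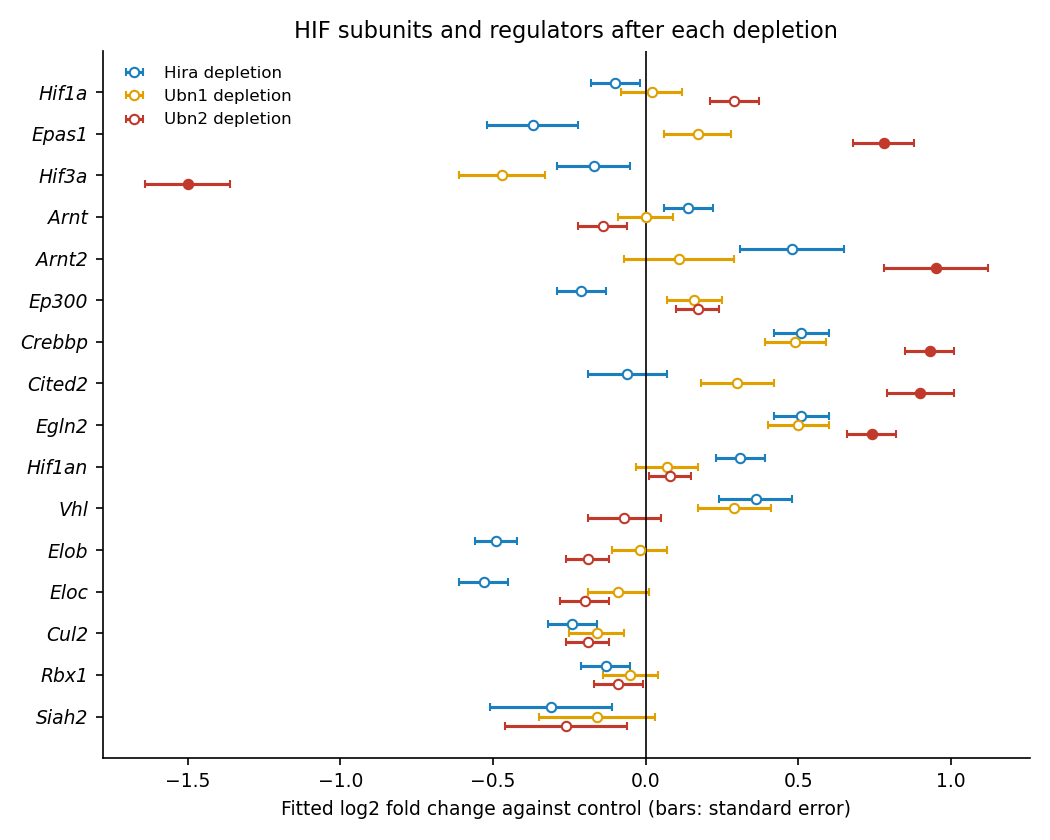
Log2 fold change against control of HIF subunits and regulators other than the members Egln1 and Egln3 after each depletion, with bars for the standard error. Filled points met both thresholds; in Ubn2_KD Epas1 is at 0.78 and Hif3a at -1.5, and no point is filled for Hira_KD or Ubn1_KD.

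A second list held 39 further HIF targets outside glycolysis, of which 37 or 38 were tested. It was also drawn up with results of these libraries known. In Ubn2_KD 18 of 37 fell and 2 rose, with a median log2 fold change of -0.52. In Hira_KD 10 of 38 fell and 2 rose, with a median of -0.18, and in Ubn1_KD 6 of 38 fell and 0 rose, with a median of -0.14. In Ubn1_KD, 2 genes of the list were higher at an unadjusted p below 0.05, and DESeq2 called 3 lower and 0 higher. Without the first control library 3 genes fell in Ubn1_KD, and 1 rose in Hira_KD. The Hira_KD median was -0.08 without the second Hira_KD library and -0.09 without the second control library. Of all tested genes, 8.75% were called lower in Ubn2_KD, 5.4% in Hira_KD and 1.56% in Ubn1_KD.

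Fam162a, a mitochondrial protein of hypoxic cell death, fell in all 3 depletions, from 119.5 and 126.7 CPM in the control to 78.12 and 71.67 CPM in Hira_KD, 73.64 and 80.95 CPM in Ubn1_KD, and 53.10 and 61.07 CPM in Ubn2_KD. Its log2 fold changes were -0.73 (adjusted p = 6.15e-07), -0.67 (adjusted p = 1.32e-05) and -1.11 (adjusted p = 7.53e-10). Vldlr, a lipoprotein receptor, also fell in all 3, at -0.73 in Hira_KD (adjusted p = 0.0027), -0.87 in Ubn1_KD (adjusted p = 0.00318) and -2.13 in Ubn2_KD (adjusted p = 2.76e-08), the Hira_KD call being lost without the second Hira_KD library, at -0.56. Bnip3l, the close relative of Bnip3 in mitochondrial removal, fell in Hira_KD at -0.60 (adjusted p = 3.06e-06) and in Ubn2_KD at -0.85 (adjusted p = 3.62e-09), and was at -0.14 in Ubn1_KD (adjusted p = 0.388). Ero1l, an oxidase of protein folding in the endoplasmic reticulum, fell at -0.69 in Hira_KD (adjusted p = 2.03e-06) and -1.13 in Ubn2_KD (adjusted p = 1.41e-09).

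Some targets were called in a single depletion, which does not by itself show that the depletions differed, so direct comparisons are given beside them. Loxl2, which cross-links collagen, was at 31.65 and 37.53 CPM in the control, 45.10 and 30.93 CPM in Hira_KD, and 7.68 and 8.67 CPM in Ubn2_KD. It fell in Ubn2_KD, at -2.09 (adjusted p = 1.57e-10), and was at 0.13 in Hira_KD (adjusted p = 0.499) and -0.25 in Ubn1_KD (adjusted p = 0.204). Compared directly, Loxl2 was called higher in Hira_KD than in Ubn2_KD, at 2.24 (adjusted p = 3.44e-07). Against Ubn1_KD it was called lower in Ubn2_KD, at -1.84 (adjusted p = 3.39e-07). Hmox1, which breaks down heme, and Tfrc, the transferrin receptor for iron uptake, fell in Hira_KD, at -0.59 (adjusted p = 6.53e-06) and -0.71 (adjusted p = 2.94e-06), the Hmox1 call being lost without the first control library, at -0.58, or the first Hira_KD library, at -0.52. In Ubn2_KD Hmox1 was at 0.20 (adjusted p = 0.0235) and Tfrc at -0.37 (adjusted p = 0.000708), neither called. Directly against Ubn2_KD, Hmox1 was called lower in Hira_KD, at -0.76 (adjusted p = 4.4e-06). Tfrc was at -0.31 in that comparison (adjusted p = 0.0133), under the fold threshold. Against Ubn1_KD neither was called in Hira_KD, with Hmox1 at -0.51 and Tfrc at -0.34.

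In Ubn1_KD the transcriptional repressor Bhlhe40 fell at -0.99 (adjusted p = 5.78e-05), the mTOR inhibitor Ddit4 at -0.72 (adjusted p = 9.06e-05) and the cyclin Ccng2 at -0.67 (adjusted p = 0.0011). Bhlhe40 and Ccng2 also fell in Ubn2_KD, at -1.20 (adjusted p = 1.13e-05) and -1.45 (adjusted p = 6.78e-08), and Ddit4 was at -0.48 there (adjusted p = 7.46e-06), under the fold threshold. In Hira_KD Bhlhe40 fell at -0.60 (adjusted p = 0.0301), a call lost without the first control library, at -0.17, or the second Hira_KD library, at -0.23, and Ccng2 and Ddit4 were at -0.25 and 0.15 (adjusted p = 0.163 and 0.339). The Ubn1_KD calls rested on single libraries: without the first control library Bhlhe40 was at -0.54 and Ccng2 at -0.41, and without the first Ubn1_KD library Ddit4 was at -0.47. DESeq2 did not call Bhlhe40 or Ddit4 in Ubn1_KD. Among the few targets that rose, the next 2 were picked after their values were seen. The chemokine receptor Cxcr4 rose in Hira_KD at 0.79 (adjusted p = 0.0119), a call lost with DESeq2 and without the first control library, at 0.59. The vasoconstrictor peptide gene Edn1 rose in Ubn2_KD at 2.08 (adjusted p = 0.00112).

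Of 20 HIF targets in glycolysis, 13 fell in Ubn2_KD with a median log2 fold change of -0.75, 9 fell in Hira_KD with a median of -0.45, and none was called higher in either, beside 8.75% and 5.4% of all tested genes called lower. By the adjusted p alone, 16 were lower and 1 was higher in Hira_KD. The latter was Pfkfb3, named after its values were seen, at 0.42 (adjusted p = 0.0026). In Ubn2_KD Pfkfb3 was called lower, at -0.62 (adjusted p = 0.000167). In Ubn1_KD edgeR and DESeq2 each called 0, with 5 lower and 1 higher at an unadjusted p below 0.05 and a median of -0.12, and 3 fell without the second Ubn1_KD library and 1 without the second control library. Set beside these, the 10 members had medians of -1.78, -0.65 and -0.71 in the same order. Pgk1, an enzyme of glycolysis, was at -1.51 in Ubn2_KD (adjusted p = 5.11e-12), -0.97 in Hira_KD (adjusted p = 1.37e-08) and -0.57 in Ubn1_KD (adjusted p = 0.000166), the last under the fold threshold, although it was past it without the second control library, at -0.63, or the second Ubn1_KD library, at -0.67. In Ubn1_KD the members Bnip3, Egln3, Ankrd37 and Ndrg1 were called lower, while no glycolytic target met both thresholds. By the adjusted p alone 5 glycolytic targets were lower in Ubn1_KD, namely Pgk1, Pfkp at -0.45, Aldoc at -0.47, Eno1 at -0.35 and Eno2 at -0.58. By the same rule 0 glycolytic targets were higher and 5 members were lower there. The difference between the lists was not tested.

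**Figure D4:**
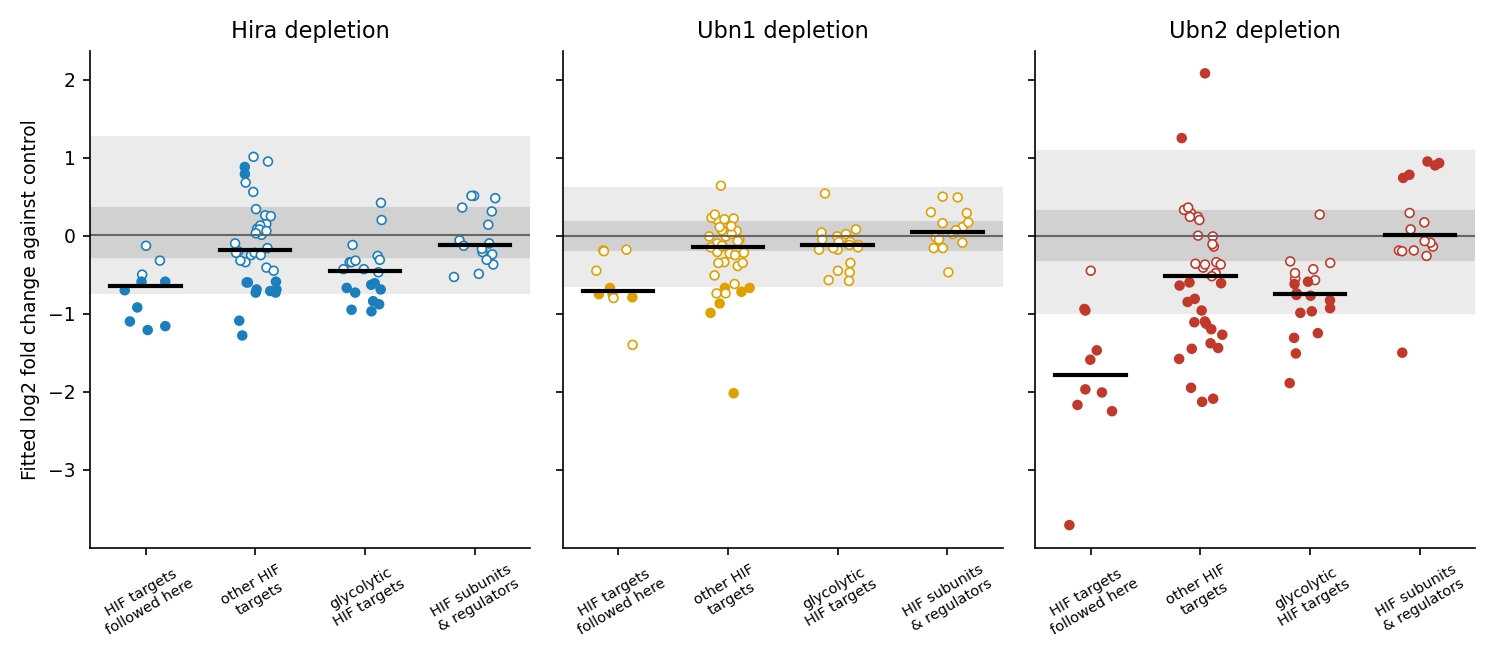
Log2 fold change against control of every gene in the 4 HIF lists after Hira, Ubn1 and Ubn2 depletion; black bars are list medians, and grey bands hold the middle 90% and middle 50% of all genes tested. Filled points met both thresholds; the members' median lies at -0.65, -0.71 and -1.78, and that of the subunits and regulators at -0.11, 0.05 and 0.00.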

How the data were processed

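RNA-seq was analysed in 8 libraries of mouse E14 ESCs, 2 per group. The authors deposited raw read counts per gene, made with Trim Galore, STAR and featureCounts on GRCm38 per the labels, in 3 tables of 55418 genes. Tool versions, the strand setting and the treatment of reads with several positions are not given in the sources used here. The control counts differed between the 3 tables at 0 genes and entered the fits a single time. A count of 0 in all libraries was found for 21460 genes. Gene positions and exon lengths were taken from GENCODE M21, and promoters from RefSeq.

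Each pair of groups was compared with edgeR 4.0.16 in R 4.3.3, using TMM, filterByExpr, quasi-likelihood tests and Benjamini-Hochberg adjustment over all tested genes, and the calling thresholds were an adjusted p of 0.05 and a fold change of 1.5. CPM were computed on TMM-scaled totals. The fits were tested on simulated data with known fold changes. With 2 libraries per group, an exact permutation test could not go below a two-sided p of 0.333 and was not used. Counting intervals are exact at 95%, and PCR duplicates are not accounted for. Tables were made in Python 3.11.15 with pandas 2.3.3, numpy 2.4.6 and scipy 1.17.1.

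The members and lists were chosen with earlier results of these data known. The genes named are all members, the depleted genes, Hif1a, Epas1, Arnt and Vhl, up to 5 called genes per list and depletion with the smallest adjusted p, and the 5 genes whose levels correlated best with the members' mean; others are marked where named. Marker lists of fibroblasts, endothelium, endoderm, cardiomyocytes, neurons, trophoblast and pluripotent cells were summed per library. The comparisons were repeated with the Wald test of DESeq2 1.42.0, with its size factors in place of TMM, without filterByExpr, with a minimum of 10 counts per library, with a joint fit of the 8 libraries, with the replicate number as a block, without the fold threshold, and leaving out each library.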

Additional observations from a re-analysis of the deposited data

How the results depend on the processing

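Each member kept its direction against control under every alternative that used all libraries. The members called lower were 5 to 7 in Hira_KD, 4 or 5 in Ubn1_KD and 7 to 9 in Ubn2_KD over the alternatives that kept the fold threshold and all libraries, with 5, 4 and 9 by DESeq2, and 9, 5 and 10 by the adjusted p alone. In Hira_KD DESeq2 did not call Vegfa or Stc1, and Egln1 and Pdk1 were no longer called in the joint fit of the 8 libraries, at -0.57 and -0.58. In Ubn1_KD Adm was called with DESeq2's size factors, with either other filter and with the block, at -1.40 to -1.39. Requiring at least 10 counts in every library removed Stc1 and Adm from the Ubn2_KD comparison, and the members' median was then -1.53. Between Hira_KD and Ubn1_KD, 3 members were called lower by the adjusted p alone, 1 was called higher with no filter on low counts and 1 with at least 10 counts in every library, and the median was -0.28 with DESeq2's size factors and -0.29 with its Wald test, where the cause was not tested.

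With each library left out in turn, the members called lower were 5 to 7 in Hira_KD, 3 to 4 in Ubn1_KD and 9 in Ubn2_KD. The medians were -0.93 to -0.68, -0.72 to -0.52 and -1.85 to -1.67. Between depletions, 7 to 8 members were higher in Hira_KD than in Ubn2_KD (median 0.79 to 1.06), 7 to 8 were lower in Ubn2_KD than in Ubn1_KD (median -1.10 to -0.89), and 0 to 1 was higher in Hira_KD than in Ubn1_KD (median -0.26 to -0.19). The median of the HIF subunits and regulators between Hira_KD and Ubn1_KD, -0.06 with all libraries, ran from -0.05 to 0.02, the positive value being that without the second Ubn1_KD library. A lone library of a group was assumed to vary like the other group's.

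With the replicate number as a block, 6 members were called lower in Hira_KD, 5 in Ubn1_KD and 9 in Ubn2_KD, 8 were higher in Hira_KD than in Ubn2_KD, 8 were lower in Ubn2_KD than in Ubn1_KD, and 0 differed between Hira_KD and Ubn1_KD. The labels do not say that equal numbers mark libraries made together. The correlation of the deviations of same-numbered libraries over 19264 genes lay between -0.0985 and 0.0978. With 2 libraries per group this value cannot show whether same-numbered libraries shared a batch that touched some genes. Depth limits Stc1 and Adm, with 2 to 99 counts per library, and their fold changes are the least certain of the members'.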

Other observations

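The 5 genes outside the list whose levels followed the members' mean most closely, by Pearson's r over the 8 libraries among 16056 genes of at least 1 CPM on average, were Trit1 (0.996), Cgn (0.991), Eif4b (0.990), Hibadh (0.989) and Uchl3 (0.987). The 8 libraries are 4 groups of 2, so these coefficients mostly describe the order of the groups. Cgn, which encodes the tight junction protein cingulin, had the largest ratio between control and Ubn2_KD of the 5, at 39.05 and 39.17 CPM in the control, 24.37 and 22.86 CPM in Hira_KD, 27.54 and 29.30 CPM in Ubn1_KD, and 14.89 and 16.46 CPM in Ubn2_KD. Trit1, a tRNA-modifying enzyme, had the same order over a narrow range, from 27.70 and 28.89 CPM in the control to 21.06 and 21.82 CPM in Ubn2_KD.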
